A study of Mus musculus with 50 samples.

Results

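Oxidative phosphorylation was followed through 67 clones of 45 genes on a spotted mouse cDNA array, out of 22824 clones that were not controls. A clone was a member if the name spotted with it began with NADH dehydrogenase (ubiquinone), succinate dehydrogenase, ubiquinol, cytochrome c oxidase, cytochrome c-1, cytochrome c, somatic or ATP synthase, H+ transporting. By these names complex I had 19 clones of 14 genes, complex II had 2 clones of Sdha, complex III had 8 clones of 3 genes, cytochrome c had 2 clones of Cycs, complex IV had 17 clones of 14 genes and complex V had 19 clones of 12 genes. The rule reads names only and uses no measured value.

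The respiratory chain sits in the inner membrane of mitochondria. Complexes I and II take electrons from NADH and succinate, ubiquinone carries them to complex III, cytochrome c carries them on to complex IV, and complex IV hands them to oxygen. Complexes I, III and IV pump protons, and the ATP synthase, complex V, lets them flow back and makes ATP. Neurons cover most of their energy demand in this way. All members here are encoded in the nucleus, and most complexes also hold subunits encoded by mitochondrial DNA.

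The RNA came from the hypothalamic paraventricular nucleus (PVN) and adjacent tissue of single-housed male mice aged 3 to 5 months, of the inbred strains DBA/2J and C57BL/6J. The stressed groups were DBA/2J and C57BL/6J mice that swam for 5 min in a water cylinder, which is an acute stressor, and were sacrificed 4 h or 8 h later. They were set against non-stressed DBA/2J and non-stressed C57BL/6J mice, and all mice were sacrificed at the same clock time. The 4 h and 8 h groups therefore swam at different clock times. Time after stress and clock time of the swim cannot be told apart. Each of these 6 groups was a single RNA pool of 6 animals, amplified in 2 rounds. Each of 5 comparisons set a pair of pools against each other on 10 arrays, with 5 arrays in either dye orientation of Cy5 and Cy3. The arrays are therefore repeated hybridisations of the same pools, and every standard error and p below covers labelling and hybridisation only, not the spread between animals. The non-stressed DBA/2J pool served 3 of the comparisons and so did the non-stressed C57BL/6J pool. In such bulk RNA, fewer cells of a type and less RNA per cell cannot be told apart.

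A value is a log2 ratio of the 2 pools of a comparison, averaged over its 10 arrays, and a standard error (SE) from limma follows it where it is tested. A clone was called where the log2 ratio was at least 0.5 either way, which is the study's fold threshold, and the adjusted p of limma (Benjamini-Hochberg over all 22824 clones) was under 0.05. A clone was counted as above the empty spots on an array where its intensity passed the 95th percentile of the 1170 empty spots of that array and dye. Of the 67 clones, 28 did so in more than 50 of their 100 readings, and 19 in fewer than 10. The brighter ones were 10 of complex V, 8 of complex IV, 7 of complex I, 1 of Sdha and both clones of Cycs, and none of complex III. The arrays of DBA/2J at 8 h had the brightest empty spots, so that 14 to 23 members passed them there, against 33 to 49 members on the arrays of C57BL/6J at 4 h.

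Ratios are given by the dyes in the labels, as DBA/2J over C57BL/6J and as stressed over non-stressed, and the folds that the study published have the opposite sign in every comparison. The direction of the strain comparison can be set against the other arrays, because the arrays of the stress comparisons carried RNA of a single strain each. The level of the non-stressed DBA/2J pool on the DBA/2J stress arrays was set against that of the non-stressed C57BL/6J pool on the C57BL/6J stress arrays, after each array set was centred on its median. These array sets were normalised separately. Of the 112 clones called between the strains and at least 2-fold apart, 96 (85.7%) had the opposite sign in that difference, as had 644 of all 827 called clones (77.9%) and 12643 of all 22824 clones (55.4%). Of the 67 members 30 had the opposite sign, both called members among them, and 37 had the same sign. Most called clones, both called members among them, thus had the turned sign on the other arrays. The members as a whole were split near evenly, at 30 to 37, and this count did not settle their direction. No such check could be made from these arrays for the stress comparisons, and the arrays alone did not settle their direction. All values below follow the labelled dyes unless said otherwise, and where the sign turns, every "higher" becomes "lower" and a median of members turns its sign too.

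The promoters of the 3 genes that lead the results are shown first, from RefSeq on GRCm38.p6. Each stretch of 300 bases ends 50 bases past the annotated start, and capitals mark the palindrome of nuclear respiratory factor 1 (GCGC, any 2 bases, GCGC), a factor known for its sites at genes of the respiratory chain. Ndufv1 encodes the NADH-binding flavoprotein of complex I, Ndufa4 a small subunit first assigned to complex I and later to complex IV, and Atp5g2 a form of the ring subunit c of the ATP synthase.
Ndufv1, chr19:4012706-4013005, minus strand: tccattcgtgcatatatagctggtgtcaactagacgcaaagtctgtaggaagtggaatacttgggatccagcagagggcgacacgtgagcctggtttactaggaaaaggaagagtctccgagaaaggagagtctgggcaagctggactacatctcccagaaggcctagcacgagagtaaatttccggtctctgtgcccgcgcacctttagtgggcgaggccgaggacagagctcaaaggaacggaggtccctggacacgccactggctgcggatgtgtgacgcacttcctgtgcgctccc
Ndufa4, chr6:11907401-11907700, minus strand: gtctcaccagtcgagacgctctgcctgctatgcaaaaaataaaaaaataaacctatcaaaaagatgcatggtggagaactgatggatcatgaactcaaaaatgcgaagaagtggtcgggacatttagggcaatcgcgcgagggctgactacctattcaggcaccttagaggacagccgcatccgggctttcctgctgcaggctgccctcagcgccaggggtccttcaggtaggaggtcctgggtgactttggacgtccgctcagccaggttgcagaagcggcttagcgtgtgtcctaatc
Atp5g2, chr15:102670998-102671297, minus strand: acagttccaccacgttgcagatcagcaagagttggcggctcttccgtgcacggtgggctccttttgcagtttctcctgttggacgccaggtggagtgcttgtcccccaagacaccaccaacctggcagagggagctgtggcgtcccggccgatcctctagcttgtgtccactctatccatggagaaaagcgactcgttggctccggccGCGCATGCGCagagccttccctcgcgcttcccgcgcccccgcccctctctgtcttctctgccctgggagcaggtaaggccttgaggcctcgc
Promoters were at hand for 35 of the 45 genes. On either strand the nuclear respiratory factor 1 palindrome was found in 10 of them (28.57%), against 6.468% of 27025 promoters of the same length. AANATGGC, a core of YY1 sites, was found in 7 (20%), against 6.202% of all. CCGGAAG, a core of ETS factors such as GABP, was found in 6 (17.14%), against 9.136%. TCAAGGTCA, the site of estrogen-related receptors, was found in 1 (2.857%), against 0.407%. The Atp5g2 match began 42 bases before the start, and the promoters printed for Ndufv1 and Ndufa4 had none of the 4 motifs. A match is a run of letters and was not tested as a binding site.

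The first comparison asked how the non-stressed strains differ. Of the 67 clones 2 were called (2.99%), against 3.62% of all clones, so the members were not called more often than the array as a whole. The called clones were Ndufv1 clone 2, lower in DBA/2J by the labelled dyes, and Ndufa4, higher in DBA/2J. The median of the members was 0.08 and that of all clones 0.01, and 38 of 67 members were above 0. At an unadjusted p under 0.05 there were 14 members (20.9%), of which 10 were higher and 4 lower in DBA/2J, against 15.4% of all clones. The members were brighter than the array as a whole, since a filter on dim clones kept 25 members (37.3%), against 15.6% of all clones. Among the clones kept, 3 of 25 members were called, against 18% of all. An unadjusted p under 0.05 in limma was found for 60% of these members, against 49.6%. The median of the members kept was 0.20, against 0.05 for all clones kept.

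Ndufv1 clone 2 had log2 ratios of -1.73 at the lowest, -1.12 at the median and -0.57 at the highest array. No array was above 0. Its normalised log2 intensity ran over 11.80, 12.23 and 12.67 (lowest, median, highest) in the DBA/2J channel and over 12.91, 13.32 and 13.80 in the C57BL/6J channel, so the pools did not overlap. The fitted log2 ratio was -1.11 (SE 0.14, 95% interval -1.40 to -0.81, limma adjusted p = 0.00052), which is 2.15-fold lower in DBA/2J by the labelled dyes and 2.15-fold higher with the sign turned. The ratio averaged -0.84 with DBA/2J in Cy5 and -1.37 with DBA/2J in Cy3. Within the 2 days of scanning it was -0.99 over 7 arrays and -1.53 over the other 3 arrays, all of which had DBA/2J in Cy3. With DBA/2J in Cy5 alone the call was lost (adjusted p = 0.14). The other clone of the gene, Ndufv1 clone 1, gave -0.25 (SE 0.31), with 5 of 10 arrays above 0 and a single array at -2.87, and was above the empty spots on at most 1 array in either pool.

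The level of Ndufv1 clone 2 did not hold across the array sets. The same non-stressed C57BL/6J pool had a median level of 13.32 on the strain arrays, 8.71 on the 4 h arrays and 7.91 on the 8 h arrays. The stressed C57BL/6J pools beside it were at 8.63 at 4 h and 7.56 at 8 h, where the clone was above the empty spots on 5 and on 0 arrays. The non-stressed DBA/2J pool stayed at 12.23, 12.80 and 13.23 on the strain, 4 h and 8 h arrays. After centring each array set on its median, the levels of the non-stressed C57BL/6J pool spanned 5.48, and 11 of the 22824 clones spanned more. The median span of all clones for that pool was 0.71, and 2.33% of clones, 3 of them members (Ndufv1 clone 2, Cyc1 and Atp5k), spanned more than 3. Between the stress arrays of the 2 strains this clone stood 4.78 higher in DBA/2J, so the direct ratio by the labelled dyes and the levels on the other arrays differ in sign and in size. The cause was not tested.

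**Figure D1:**
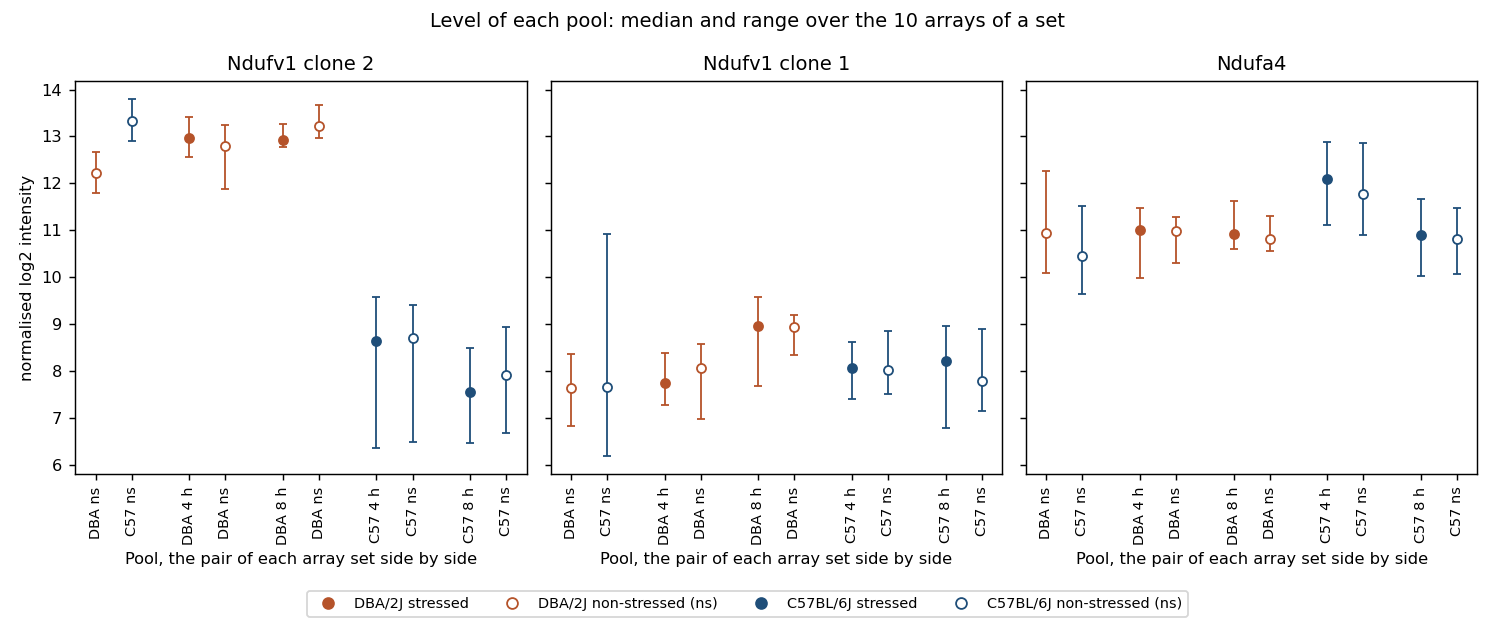
Normalised log2 intensity (y axis) of Ndufv1 clone 2, Ndufv1 clone 1 and Ndufa4 in each pool of each array set (x axis; ns, non-stressed). Circles are medians and bars the full range over 10 arrays. Ndufv1 clone 2 in non-stressed C57BL/6J mice is at 13.32 on the strain arrays but at 8.71 and 7.91 on the stress arrays, whereas the DBA/2J pools stay between 12.23 and 13.23.

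Ndufa4 was above 0 on 10 of 10 arrays, from 0.20 over a median of 0.46 to 1.33. Its level was 10.10, 10.94 and 12.26 (lowest, median, highest) in DBA/2J and 9.63, 10.45 and 11.51 in C57BL/6J, so the ranges of the pools overlapped although every array gave the same sign. The fitted log2 ratio was 0.56 (SE 0.13, 95% interval 0.28 to 0.85, limma adjusted p = 0.029), which is 1.48-fold higher in DBA/2J by the labelled dyes and 1.48-fold lower with the sign turned. The call was lost when any array other than array 8 was left out (adjusted p between 0.038 and 0.081 over all 10 fits), without the dye term (0.060), and in either dye orientation alone (0.57 with DBA/2J in Cy5 and 0.13 in Cy3). Between the stress arrays of the 2 strains, each set centred on its median, the difference of Ndufa4 (DBA/2J minus C57BL/6J) was -0.32.

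Cytochrome c, the soluble carrier between complexes III and IV, came close to a call. Cycs clone 1 was above 0 on 10 of 10 arrays, from 0.27 over 0.53 to 0.71, with levels of 13.16, 13.89 and 14.49 in DBA/2J and 12.54, 13.31 and 13.93 in C57BL/6J. Its log2 ratio of 0.50 (SE 0.13, limma adjusted p = 0.044) stood just under the fold threshold. It was called without background subtraction (0.51) and with scan day as a block (0.50), and its log2 ratio was 0.24 with print-tip loess and 0.23 with median centring. Cycs clone 2 gave 0.40 (SE 0.14, adjusted p = 0.17) with 8 of 10 arrays above 0. The pair of clones had the same sign, and both were above the empty spots in 100 of 100 readings.

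In complex I, 11 of 19 clones were above 0 and the median was 0.13. Ndufs5, an accessory subunit, had the same log2 ratio as Ndufa4, 0.56 (SE 0.17, adjusted p = 0.10), with 9 of 10 arrays above 0, and did not pass. It was called with median centring, with the filter on dim clones and with all 50 arrays in a single fit. Of the other core subunits besides Ndufv1, the iron-sulfur proteins Ndufv2 and Ndufs1 gave 0.13 (SE 0.15) and 0.02 (SE 0.16), and Ndufs3 gave 0.47 (SE 0.24) and 0.20 (SE 0.27) in its 2 clones. These values lay within about 2 standard errors of 0. The accessory subunit Ndufa2 differed between its clones, at 0.42 (SE 0.17) and -0.10 (SE 0.21).

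Sdha, the flavoprotein of complex II that oxidises succinate, gave 0.20 (SE 0.14) and 0.26 (SE 0.20) in its 2 clones, both above 0 on 7 of 10 arrays. Complex III had a median of -0.08. It ran from Uqcrc1 clone 3 at 0.34 (SE 0.23) to Uqcrc1 clone 1 at -0.31 (SE 0.21), so the highest and the lowest value belonged to clones of a single gene, a core protein of the complex. Cyc1, its heme protein, was at -0.08 (SE 0.18). No clone of complex II or III had an unadjusted p under 0.05 in this comparison.

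Complex IV was the group with the most values below 0, with 12 of 17 clones and a median of -0.09. Cox6c, a subunit encoded in the nucleus, stood lowest at -0.42 (SE 0.14, adjusted p = 0.13). It was below 0 on 9 of 10 arrays and did not pass, but was called at -0.62 with print-tip loess, at -0.67 with median centring and at -0.51 in the authors' processed values. Cox8a clone 2 had the same log2 ratio, -0.42 (SE 0.18), and clone 1 was at -0.22 (SE 0.17). Cox7a2 stood highest at 0.29 (SE 0.15). Cox4i1 was at 0.17 (SE 0.15), Cox5a at -0.39 (SE 0.21) and Cox5b at -0.26 (SE 0.21). Cox5a had a single array at -2.02. Over all comparisons 8 of the 17 clones were above the empty spots in fewer than 10 of 100 readings. Among these were Cox5a with 3, Cox5b with 0 and Cox8a clone 1 with 4 readings, and Cox8a clone 2 had 19. The count of values below 0 thus rests in part on clones at the level of empty spots.

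In complex V, 15 of 19 clones were above 0 and the median was 0.14. The catalytic beta subunit Atp5b gave 0.16 (SE 0.19) and 0.29 (SE 0.17), and the gamma subunit of the rotor, Atp5c1, gave 0.35 (SE 0.14, adjusted p = 0.21). Atp5a1, the alpha subunit, reached 0.51 (SE 0.20) in clone 2, which was not above the empty spots on any of these arrays, and 0.13 (SE 0.14) in clone 1, which was above them on all 10 arrays. Atp5f1 clone 1, the b subunit of the stalk, was at 0.43 (SE 0.14, adjusted p = 0.12). The c subunit gene Atp5g2 stood lowest at -0.48 (SE 0.16, adjusted p = 0.13) in clone 1 and was at -0.03 (SE 0.19) in clone 2. None of these passed.

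**Figure D2:**
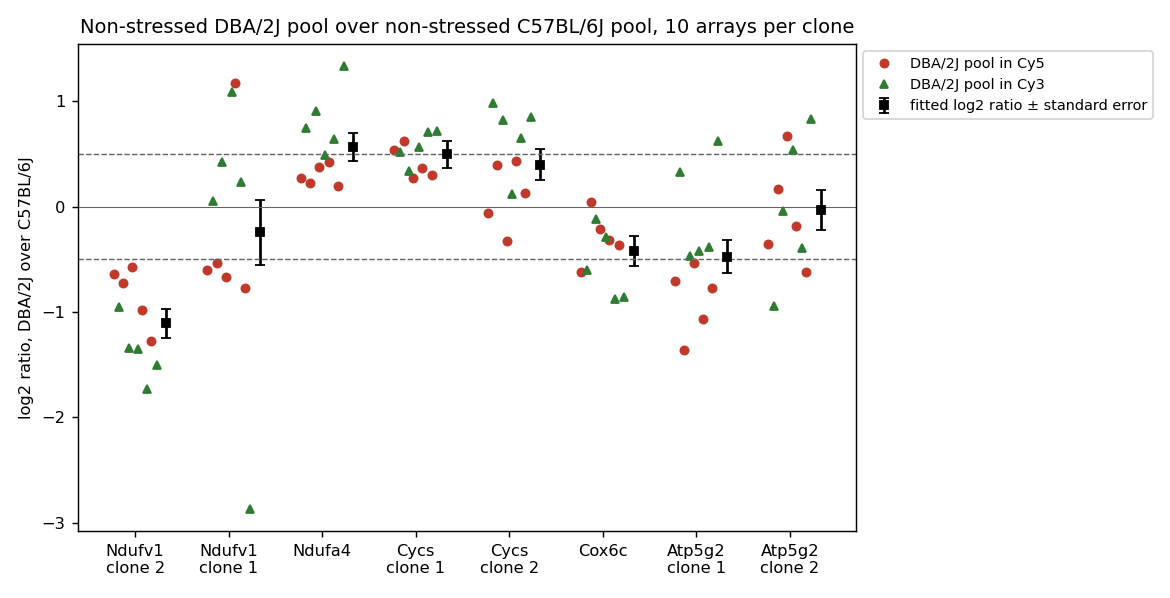
Log2 ratio of DBA/2J over C57BL/6J (y axis) on each of the 10 strain arrays for 8 clones (x axis). Red circles have DBA/2J in Cy5, green triangles have it in Cy3, black squares are the fitted ratio with its standard error, and dashed lines mark the fold threshold. Ndufv1 clone 2 lies below 0 and Ndufa4 and Cycs clone 1 lie above 0 on all 10 arrays.

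The next comparisons asked how the PVN responds to forced swimming. In none of the 4 was a member called. The share of all clones called was small too, at 0.153% in DBA/2J at 4 h, 0.158% in DBA/2J at 8 h, 0.289% in C57BL/6J at 4 h and 0.0832% in C57BL/6J at 8 h, so that a count of 0 among 67 clones says little about the members. At an unadjusted p under 0.05 there were 5 members in DBA/2J at 4 h (7.46%, against 10.7% of all clones) and 9 in DBA/2J at 8 h (13.4%, against 12.0%). In C57BL/6J there were 17 at 4 h (25.4%, against 12.3%) and 7 at 8 h (10.4%, against 9.28%). The 95% interval of the log2 ratio lay wholly within 0.5 either way for 30 and 38 members in DBA/2J at 4 h and 8 h, and for 37 and 33 members in C57BL/6J. In DBA/2J these were 44.8% and 56.7% of members, against 34.0% and 42.6% of all clones. In C57BL/6J they were 55.2% and 49.3%, against 49.8% and 34.6%. For the remaining members these arrays do not exclude a change of that size. A filter on dim clones kept 29 members in DBA/2J at 4 h and 17 at 8 h. Their medians were 0.09 and 0.14, against 0.01 at either time for all clones kept. In C57BL/6J it kept 47 members at 4 h and 32 at 8 h, with medians of 0.11 and 0.08. All clones kept had medians of 0.01 and -0.01 there. These gaps were not tested.

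In DBA/2J 4 h after stress the members had a median of 0.00, the same as all clones, and 35 of 67 were above 0. Cox8a clone 1, a small complex IV subunit, stood highest at 0.68 (SE 0.17, adjusted p = 0.15) and was above 0 on 9 of 10 arrays. It was not above the empty spots on any array, and Cox8a clone 2 was at 0.09 (SE 0.27). Sdha gave 0.50 (SE 0.17, adjusted p = 0.30) in clone 2 and 0.24 (SE 0.13) in clone 1, so both clones of complex II were above 0. Both clones of Cycs were above 0 as well, at 0.44 (SE 0.14, adjusted p = 0.24) and 0.32 (SE 0.16). Complex III had 2 of 8 clones above 0, with Uqcrc1 clone 1 lowest at -0.38 (SE 0.13, adjusted p = 0.29), Cyc1 at -0.33 (SE 0.18) and Uqcrb clone 2, a ubiquinone-binding subunit, highest at 0.15 (SE 0.21). Complex I ran from Ndufs4, an accessory subunit, at -0.31 (SE 0.16) to Ndufv1 clone 2 at 0.25 (SE 0.14). Atp5b clone 2, the catalytic subunit of the ATP synthase, was at 0.36 (SE 0.13, adjusted p = 0.32) and above 0 on 9 of 10 arrays. Complex V ran from Atp5g3 clone 2 at -0.32 (SE 0.23) to Atp5g3 clone 1 at 0.36 (SE 0.28), so that here too clones of 1 gene held both ends. Over all comparisons Atp5g3 clone 1 was above the empty spots in 0 of 100 readings. Complex IV had a median of 0.09 with 12 of 17 clones above 0, and Cox6a1 clone 1 stood lowest at -0.21 (SE 0.12).

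In DBA/2J 8 h after stress the median was 0.03, against 0.00 for all clones. Complex IV had 14 of 17 clones above 0 and a median of 0.16, the highest of the complexes. Its highest clones were Cox6a1 clone 2 at 0.43 (SE 0.25), Cox8a clone 2 at 0.37 (SE 0.20) and Cox6a2, the heart and muscle form of subunit VIa, at 0.33 (SE 0.12, adjusted p = 0.29). None of these was above the empty spots on an array of this comparison. In complex V, Atp5g2 clone 1 ran over -0.14, 0.35 and 1.28 (lowest, median, highest array) and gave 0.44 (SE 0.12, adjusted p = 0.16). Atp5c1 gave 0.40 (SE 0.11, adjusted p = 0.18) with 8 of 10 arrays above 0, and Atp5a1 clone 2 stood lowest at -0.38 (SE 0.12, adjusted p = 0.24). Complex I had 5 of 19 clones above 0, from Ndufv2 at 0.27 (SE 0.09, adjusted p = 0.25) to Ndufb9 clone 1, an accessory subunit, at -0.44 (SE 0.27). Over all comparisons Ndufb9 clone 1 was above the empty spots in 4 of 100 readings. Ndufv1 clone 2 gave -0.25 (SE 0.09, adjusted p = 0.27). Sdha was at -0.02 (SE 0.09) in clone 1 and -0.35 (SE 0.18) in clone 2. Complex III ran from Uqcrb clone 1 at -0.34 (SE 0.18) to Uqcrc1 clone 3 at 0.24 (SE 0.16), and no member of complexes II and III had an unadjusted p under 0.05.

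C57BL/6J 4 h after stress had the most members with a small p. The median was 0.09, against 0.00 for all clones, and 15 of the 17 members with an unadjusted p under 0.05 were above 0 and 2 below. Complex V had 14 of 19 clones above 0 and a median of 0.11, and its median was above 0 on each of the 10 arrays, between 0.03 and 0.24. Its clones with a small p were Atp5g1 at 0.36 (SE 0.10, adjusted p = 0.15), Atp5g2 clone 1 at 0.37 (SE 0.11, adjusted p = 0.20), Atp5j2 at 0.33 (SE 0.10, adjusted p = 0.20), Atp5c1 at 0.23 (SE 0.08) and Atp5o clone 1 at 0.21 (SE 0.08). Atp5c1 was above 0 on 10 of 10 arrays. Cycs clone 2 gave 0.33 (SE 0.08) with the smallest adjusted p of the members (0.13), whereas Cycs clone 1 gave 0.01 (SE 0.08). Ndufa2 clone 1 was above 0 on 10 of 10 arrays, from 0.01 over 0.32 to 0.78, at 0.36 (SE 0.10, adjusted p = 0.15). Ndufa2 clone 2 went the other way at -0.58 (SE 0.17, adjusted p = 0.19) but was not above the empty spots on any array. In complex III, Cyc1 gave 0.29 (SE 0.09, adjusted p = 0.21) and was above 0 on 9 of 10 arrays, and in complex IV the lowest clone was Cox4i2, an isoform of subunit IV, at -0.53 (SE 0.25). Over all comparisons Cox4i2 was above the empty spots in 2 of 100 readings. Sdha stayed near 0 in both clones, at 0.01 (SE 0.09) and -0.08 (SE 0.13), and both were above the empty spots on all 10 arrays.

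In C57BL/6J 8 h after stress the median was -0.01, as for all clones, and 30 of 67 members were above 0. Cox4i1, the common isoform of subunit IV of cytochrome c oxidase, had the smallest p. Its level was 9.21, 10.21 and 10.77 in the stressed pool (lowest, median, highest) and 9.02, 9.40 and 10.06 in the non-stressed pool, so the ranges overlapped. Its log2 ratio was -0.12, 0.70 and 1.18 over the arrays, above 0 on 9 of 10, and 0.61 in the fit (SE 0.13, adjusted p = 0.13). It averaged 0.91 with the stressed pool in Cy5 and 0.31 with it in Cy3, and was 0.96 and 0.51 within the 2 days of scanning. It did not pass here, and was called with a filter on dim clones (adjusted p = 0.0022) and with all 50 arrays in a single fit (adjusted p = 0.00081). Uqcrc1 clone 4 was at -0.43 (SE 0.15, adjusted p = 0.39), Cox6a1 clone 2 was lowest of complex IV at -0.51 (SE 0.21), Ndufb5 was lowest of complex I at -0.48 (SE 0.28) and Ndufs1 gave -0.44 (SE 0.18). Over all comparisons Ndufb5 was above the empty spots in 0 of 100 readings and Cox6a1 clone 2 in 1. Both clones of Cycs were above 0, at 0.21 (SE 0.13) and 0.29 (SE 0.12, adjusted p = 0.47). Complex V had 11 of 19 clones above 0, from Atp5a1 clone 2 at -0.15 (SE 0.16) to Atp5g3 clone 1 at 0.44 (SE 0.18), and neither was above the empty spots on any array. Cox5a reached 0.47 (SE 0.46) through a single array at 4.22.

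**Figure D3:**
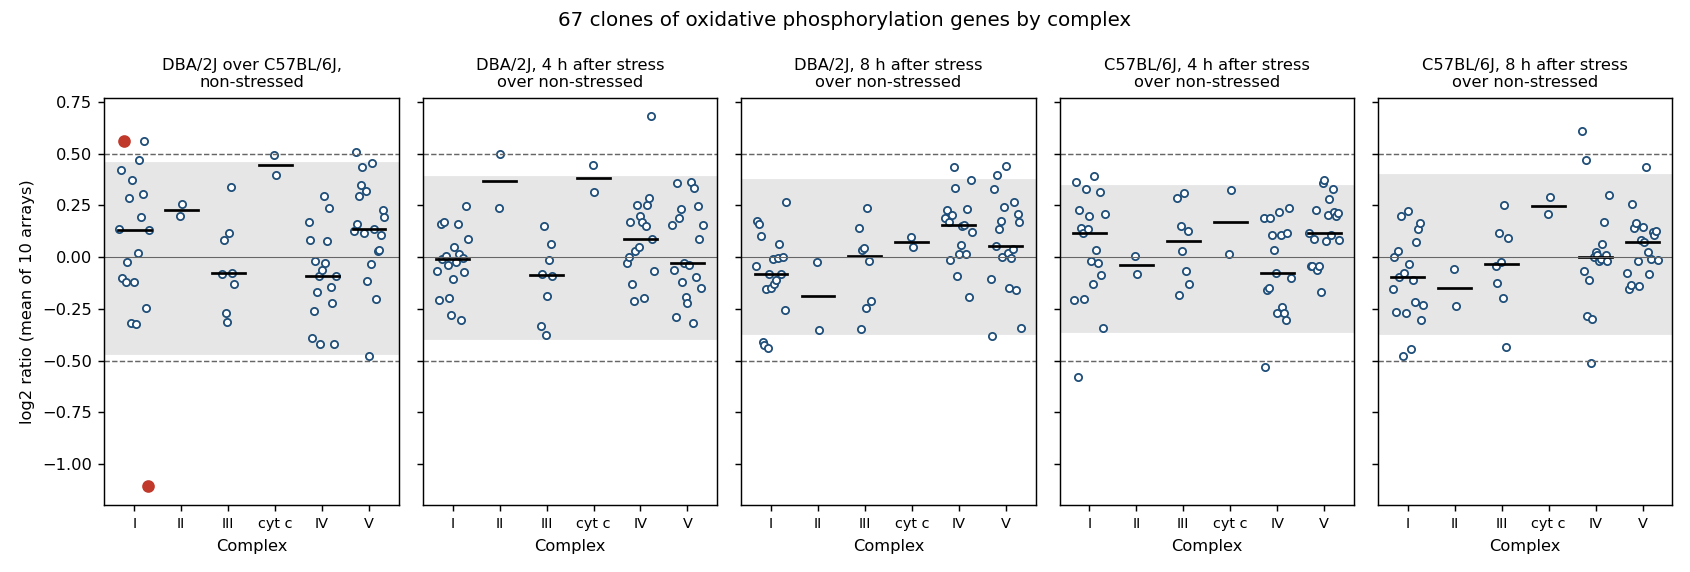
Log2 ratios (y axis) of the 67 clones by complex (x axis) in the 5 comparisons. Each circle is the mean of 10 arrays, filled red where called, with black bars at the median of a complex, dashed lines at the fold threshold and a grey band from the 5th to the 95th percentile of all 22824 clones. The 2 called clones, both counted under complex I by name, are in the strain comparison, at 0.56 (Ndufa4, later assigned to complex IV) and -1.11 (Ndufv1 clone 2).

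Whether a response differed between the strains or the times was tested as a difference of 2 log2 ratios over 20 arrays. Between the strains at 4 h, DBA/2J minus C57BL/6J, 2 members were called (2.99%), against 2.34% of all clones. Between the strains at 8 h no member was called, against 0.600% of all clones. Between the times, 8 h minus 4 h, 1 member was called in DBA/2J (1.49%, against 1.00% of all clones) and none in C57BL/6J (against 0.495%). The median of the members was 0.00 between the strains at 4 h and 0.04 at 8 h, and it was -0.02 between the times in DBA/2J and -0.09 in C57BL/6J.

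The 2 clones called between the strains at 4 h were Ndufa2 clone 1 and Atp5g2 clone 1. Ndufa2 clone 1 had log2 ratios of -0.86, -0.22 and 0.43 in DBA/2J (lowest, median, highest) and of 0.01, 0.32 and 0.78 in C57BL/6J. The arrays of the strains overlapped. The difference was -0.57 (SE 0.15, limma adjusted p = 0.041), 1.48-fold by the labelled dyes and of the opposite sign if they are turned. Ndufa2 clone 2 had a difference of 0.74 (SE 0.27, adjusted p = 0.19), so the clones of this gene had opposite signs. The call was lost in 16 of 20 fits that left out an array, all but those without C57BL/6J array 2 or DBA/2J array 1, 5 or 7 (adjusted p between 0.037 and 0.082 over all 20).

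Atp5g2 clone 1 had log2 ratios of -0.62, -0.28 and 0.29 in DBA/2J and of -0.14, 0.20 and 1.32 in C57BL/6J at 4 h. The difference was -0.59 (SE 0.15, adjusted p = 0.041), 1.51-fold by the labelled dyes and of the opposite sign if they are turned. At 8 h DBA/2J had -0.14, 0.35 and 1.28, and 8 h minus 4 h in DBA/2J came to 0.66 (SE 0.15, adjusted p = 0.043), 1.58-fold and likewise of the opposite sign if the dyes are turned. These differences share the DBA/2J arrays of 4 h. Atp5g2 clone 2 had -0.12 (SE 0.26) between the strains at 4 h and 0.06 (SE 0.34) between the times in DBA/2J. Leaving out an array ended the first call in 15 of 20 fits, all but those without C57BL/6J array 5 or 6 or DBA/2J array 5, 7 or 9 (adjusted p between 0.024 and 0.078 over all 20). It ended the second in 18 of 20, all but those without the 4 h array 5 or the 8 h array 10 (adjusted p between 0.036 and 0.086 over all 20).

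**Figure D4:**
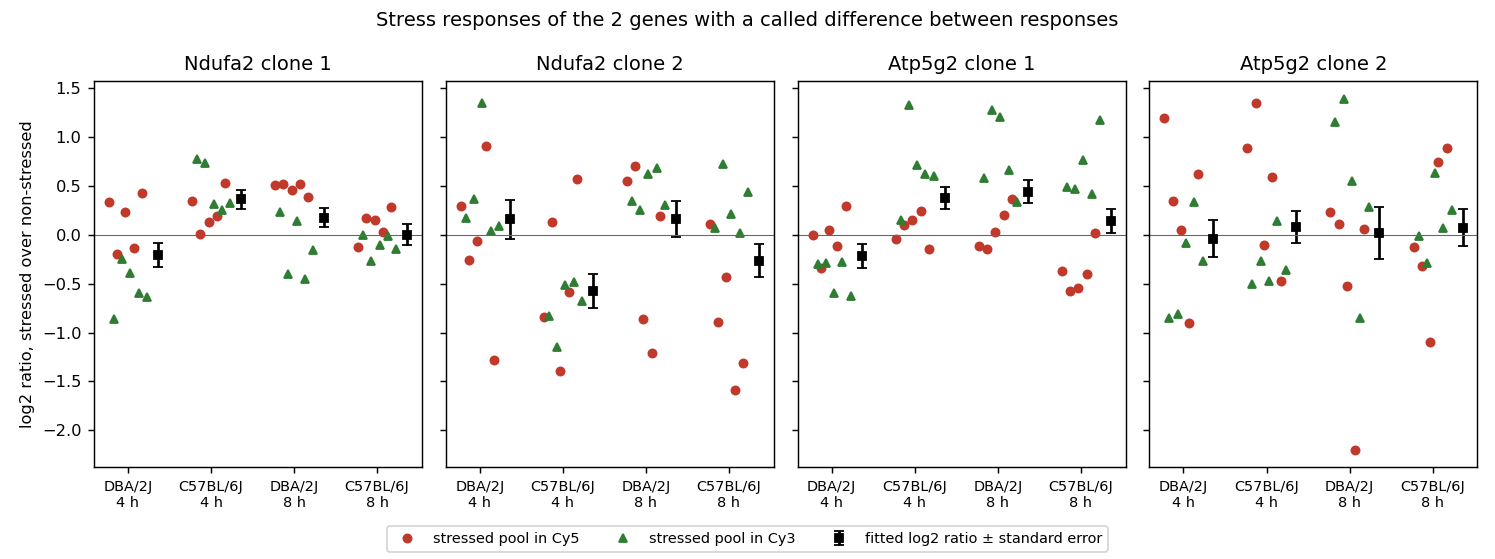
Log2 ratio of stressed over non-stressed (y axis) on each array for both clones of Ndufa2 and of Atp5g2 in DBA/2J and C57BL/6J at 4 h and 8 h (x axis). Circles have the stressed pool in Cy5, triangles have it in Cy3, and squares are the fitted ratio with its standard error. At 4 h Ndufa2 clone 1 is at -0.21 in DBA/2J and 0.36 in C57BL/6J, and its clone 2 is at 0.16 in DBA/2J and -0.58 in C57BL/6J.

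Other members came near without passing. At 4 h Cyc1 had a difference between the strains of -0.62 (SE 0.20, adjusted p = 0.12), Cox7c of 0.59 (SE 0.20, adjusted p = 0.14) and Atp5g1 of -0.55 (SE 0.17, adjusted p = 0.097). At 8 h Ndufv2 had 0.50 (SE 0.13, adjusted p = 0.087) and Cox6a2 had 0.63 (SE 0.16, adjusted p = 0.10). Those of 4 h are subunits of complexes III, IV and V, and those of 8 h of complexes I and IV. Between the times in DBA/2J, Cox8a clone 1 had a difference of -0.87 (SE 0.25, adjusted p = 0.094), Sdha clone 2 of -0.85 (SE 0.26, adjusted p = 0.13) and Ndufv1 clone 2 of -0.50 (SE 0.15, adjusted p = 0.14). The other clones of these genes were at 0.29 (Cox8a clone 2), -0.26 (Sdha clone 1) and 0.07 (Ndufv1 clone 1). Over all comparisons Cox8a clone 1 was above the empty spots in 4 of 100 readings and Sdha clone 2 in 21. The interval of the difference lay wholly within 0.5 either way for 13 members between the strains at 4 h and 16 at 8 h. These were 19.4% and 23.9% of members, against 10.4% and 12.0% of all clones.

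Clones of a single gene give a check of these values on the same arrays. In 18 genes with several clones, all clones had the same sign in 13 genes between the strains, in 6 and 14 genes in DBA/2J at 4 h and 8 h, and in 10 and 10 genes in C57BL/6J. Of the 16 genes with 2 clones, where unrelated signs would match about as often as not, 12 matched between the strains. In DBA/2J 6 and 13 of them matched at 4 h and 8 h, and in C57BL/6J 9 and 10. The median distance between the highest and the lowest clone of a gene was between 0.20 and 0.30. Dye orientation was another check. The sign was the same in both orientations for 38 of 67 members between the strains, for 29 and 33 in DBA/2J at 4 h and 8 h, and for 36 and 19 in C57BL/6J. These counts are near an even split or, in C57BL/6J at 8 h, below it, so this check does not bear the signs out.

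**Figure D5:**
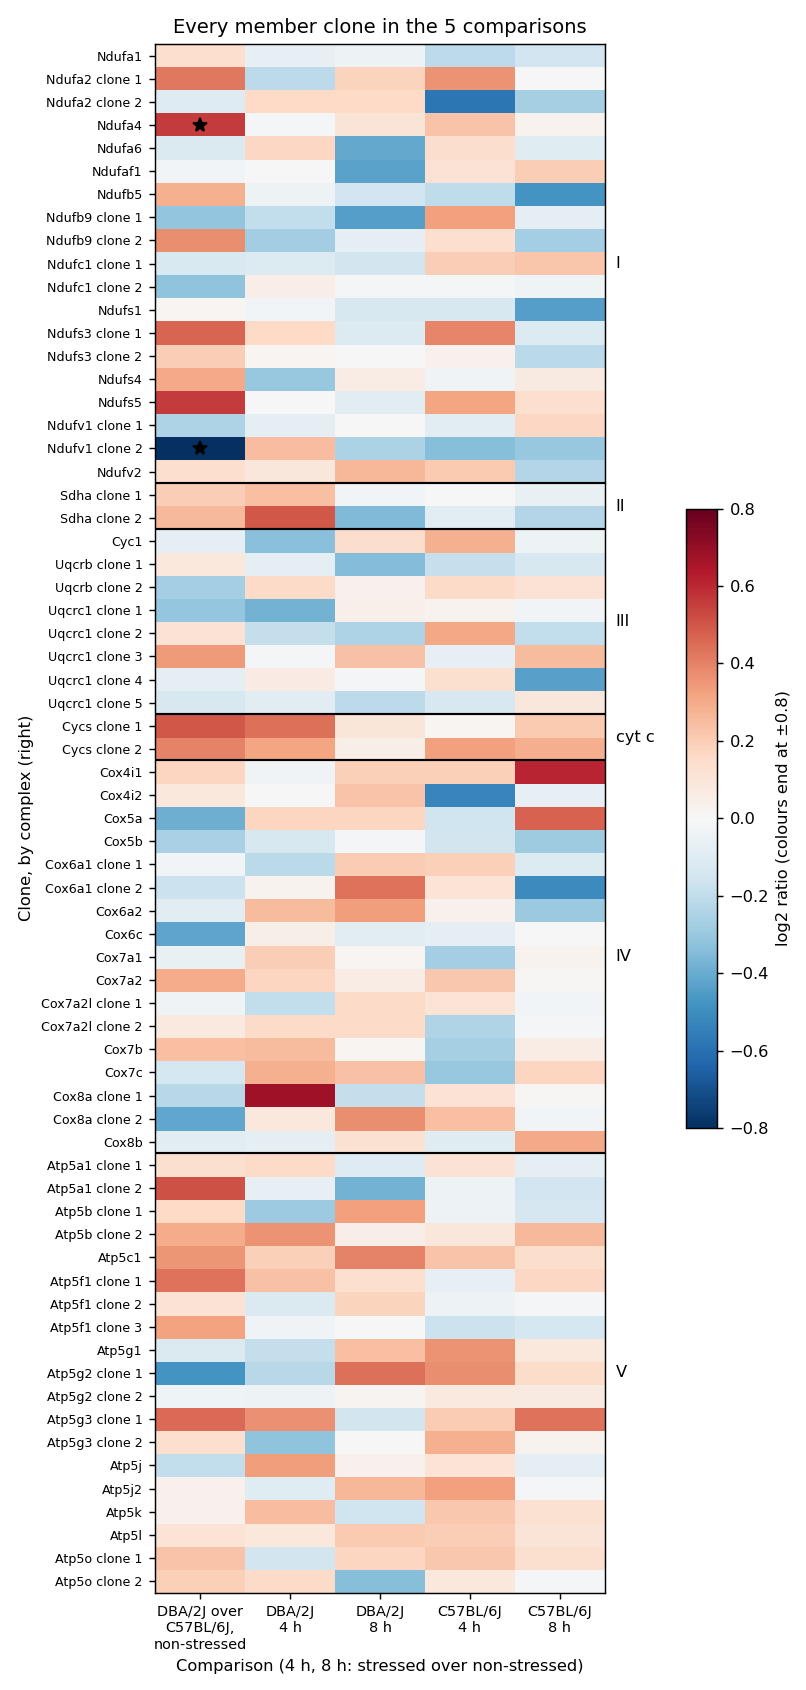
Log2 ratio of each of the 67 clones (rows, by complex) in the 5 comparisons (columns), from blue (negative) to red (positive), with colours that end at 0.8 either way. Stars mark calls. The 2 stars are Ndufa4 at 0.56 and Ndufv1 clone 2 at -1.11 in the strain comparison, and no complex has a single colour across a column except cytochrome c and, in some columns, complex II.

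Other pathways of energy metabolism were read from lists of genes. Among the carriers and porins (25 clones of 16 genes) a clone of Slc25a12, the aspartate-glutamate carrier, was called between the strains at -1.50 (SE 0.13, adjusted p = 2.2e-05), and another clone of it was not (adjusted p = 0.79). Of 14 clones of 10 genes for mitochondrial biogenesis and transcription none was called in any of the 5 comparisons or 4 differences. Glycolysis had 30 clones of 15 genes and no call in the 5 comparisons. In the difference between the strains at 4 h, however, 7 of these 30 clones were called, all negative, against 2.34% of all clones. The median of the 30 was -0.37, against 0.00 for all clones and 0.00 for the respiratory chain. The 7 called clones were Gapdh at -0.96 (SE 0.13, adjusted p = 0.00032), Eno1, Aldoc, Gpi1, Eno2, Pfkm and Tpi1. Aldoc also stands on the list of astrocyte markers and Eno2 on that of neurons, and 2 clones of Glul, an astrocyte enzyme, were called in the same difference at -0.70 and -0.61, whose part in the glycolysis values was not tested. In that difference 3 clones of the tricarboxylic acid cycle (25 clones of 16 genes) were called, 2 of Idh2 and 1 of Idh3b. Between the times in DBA/2J, which shares the DBA/2J arrays of 4 h, 2 glycolysis clones were called, both positive. They were of Aldoc and Gapdh, and 1.00% of all clones were called there. The difference between glycolysis and the respiratory chain was not tested.

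Markers of other cells moved in the strain comparison. Of 20 astrocyte clones 4 were called, all of Glul, and of 29 oligodendrocyte clones 4 of Mbp were called higher and 1 each of Cnp and Mobp lower by the labelled dyes. Of 5 blood clones 2 were called, both of Hbb-b1. The share of all clones called in this comparison was 3.62%. The mean level of the astrocyte list ran from 9.77 to 10.52 over the arrays in DBA/2J and from 9.68 to 10.22 in C57BL/6J, and that of the oligodendrocyte list from 8.97 to 9.40 in DBA/2J and from 8.74 to 9.32 in C57BL/6J. Aqp4 of the astrocyte list and Cldn11, Mag, Mal and Mog of the oligodendrocyte list were not above the empty spots on these arrays. In the stress comparisons Trh, a neuropeptide of the PVN with 1 clone here, was called at -0.75 in DBA/2J at 4 h, where no member was. It was also called in both differences in which Atp5g2 clone 1 was, at -1.08 between the strains at 4 h and at 0.81 between the times in DBA/2J. These differences share the DBA/2J arrays of 4 h, and Trh was not above the empty spots on any DBA/2J array of 8 h. Of 27 neuronal clones 2 were called between the strains at 4 h, 1 each of Eno2 and Syn1, against 2.34% of all clones. A single clone of Snap25 was called at -0.56 in DBA/2J and 0.89 in C57BL/6J at 8 h, at -1.45 between the strains at 8 h, and at -0.62 in DBA/2J and 0.76 in C57BL/6J between the times, while its other clones were not. None of these markers' part in the member values was tested. Of the neuroendocrine markers of the PVN, Oxt was not above the empty spots on any array of 4 of the 5 comparisons. Nor was Avp in C57BL/6J at 8 h, nor were Trh and Sst in DBA/2J at 8 h. No clone was matched by name to Crh, Sim1, Otp or Pou3f2.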

How the data were processed

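The 6 RNA pools were compared on 50 2-colour arrays. Per the file headers, the authors' scanner files hold mean spot intensities and background intensities of either dye, quantified with a fixed circle, and these were the values used here. The deposited log2 ratios of the authors (19047 spots), which they normalised and centred near 0 on each array, served as an alternative, and the filter behind these spots is not given in the sources used here. That scale and their direction, as labelled, were read from their match to the scanner values. Intensities were background-corrected with normexp (offset 50) and normalised within arrays by global loess, with the 1368 control spots at weight 0, in limma 3.58.1 (R 4.3.3). The 22824 other clones of 24192 spots were fitted per comparison over 10 arrays with a dye term, and adjusted by Benjamini-Hochberg. The difference of 2 responses was fitted over 20 arrays. The number of arrays limits the precision. The clones named are the called ones, the highest and lowest of each complex, those with the smallest p in each comparison, the redox or catalytic core subunits and other clones of these genes, and a few more chosen after their values were seen. The members and lists were chosen with earlier results of these data known. Sequences are those of RefSeq (GRCm38.p6), where all 45 genes were matched by name. Alternatives were other background corrections and normalisations, filters, dye orientations, blocks, the methods' test for each clone and leaving out each array. Some called clones of the other lists are not reported here.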

Additional observations from a re-analysis of the deposited data

Results flagged for a closer look

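In 11 of 148 sets of 10 arrays that were checked, a single array stood far from the others, and chance gives about 1 in 20. In the strain comparison array 10 gave 2.57 for Ndufs3 clone 2 (nearest array 0.74) and -2.87 for Ndufv1 clone 1 (nearest -0.77), and array 1 gave -2.02 for Cox5a (nearest -0.75). In DBA/2J at 4 h array 1 gave -0.87 for Ndufv2 (nearest -0.11), array 5 gave 1.72 for Uqcrc1 clone 3 (nearest 0.53) and array 9 gave 0.36 for Cox6a1 clone 1 (nearest -0.08). In DBA/2J at 8 h array 8 gave 0.60 for Ndufa4 (nearest 0.22), array 2 gave 0.49 for Uqcrc1 clone 4 (nearest 0.14) and array 6 gave -0.59 for Atp5b clone 2 (nearest -0.02). In C57BL/6J at 8 h array 5 gave 1.4 for Uqcrc1 clone 1 (nearest 0.27) and array 9 gave 4.22 for Cox5a (nearest 1.15). None of these clones was called in the comparison concerned.

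The response at 4 h differed between DBA/2J and C57BL/6J by -0.57 for Ndufa2 clone 1 and by -0.59 for Atp5g2 clone 1, and that of DBA/2J differed between 8 h and 4 h by 0.66 for Atp5g2 clone 1, each by limma's test of the difference. The other clone was not called in any of these, at 0.74 for Ndufa2 clone 2, and at -0.12 between the strains and 0.06 between the times for Atp5g2 clone 2.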

How the results depend on the processing

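No call turned its direction under any alternative that was run, but each call of a member was lost under some alternative. The call changed for 9 of 233 values of named clones that were followed. Not among these 9 are Ndufs5 between the strains, and Ndufv2 (print-tip loess) and Cox6a2 (all 50 arrays) between the strains at 8 h, which alternatives also called. Between the non-stressed strains 2 members were called, against 5 with median centring, 3 each with all 50 arrays, with scan day as a block, in the authors' processed values, after the dim filter, with loess by print-tip and where no background was subtracted, 1 without the dye term, 1 with each orientation averaged, 0 with DBA/2J in Cy5 alone, 1 with it in Cy3 alone and 1 to 2 without any array. The methods' t-test called 2 members there and 0 in each stress comparison. Between the strains the share of all clones called moved as well, from 3.62% to 4.93% (median centring) and 5.42% (all 50 arrays). It was 4.12% with scan day as a block, 3.92% with print-tip loess and 2.88% without background subtraction. The dim filter tested 25 members and called 18% of the clones it kept. The authors' values tested 50 members and called 4.46% of all clones. In C57BL/6J at 8 h the count of members was 0. It was 1 of 32 with the filter on dim clones (2% of the clones kept) and 1 with all 50 arrays in a single fit (0.863% of all clones). For the difference between the strains at 4 h the count was 2, and 0 to 2 without any array. At 8 h it was 0, and 1 with print-tip loess (0.648% of all clones) and 1 with all 50 arrays (0.946%). For 8 h minus 4 h in DBA/2J it was 1, and 0 to 1 without any array. With the replicate number as a block the count was 0 between the strains at 4 h and 0 between the times in DBA/2J. The median of complex IV in C57BL/6J at 8 h was 0.00, against 0.19 with the stressed pool in Cy5 alone and -0.23 with it in Cy3 alone. The numbers do not pair the arrays, since residuals of arrays with the same number correlated between -0.016 and 0.021. The cause of these changes was not tested. Pools without replicate animals and clones at the level of empty spots limit all of these values.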
